A study of Homo sapiens with 4 samples.

Results

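The genes described here are 10 regulators of the G1 phase of the cell cycle: the D cyclins CCND2 and CCND3, the E cyclins CCNE1 and CCNE2, the kinases CDK4 and CDK6, the kinase inhibitors CDKN1A and CDKN1B, the pocket protein RB1 and the transcription factor E2F1. They were chosen by name, and each symbol matched 1 of the 16057 rows of the deposited expression table. The cells were MM.1S, an established human multiple myeloma line, grown in RPMI-1640 medium with serum. The treated group was exposed to 350 nM of JG342, a small molecule that blocks the chaperone HSP70 at an allosteric site, and the control group to the solvent DMSO, both for 26 h. Each group has 2 libraries, numbered 1 and 2, so all 4 libraries come from 1 cell line, and p-values measure only the spread between these libraries. The study's design text calls the replicates biological.

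D cyclins pair with CDK4 or CDK6 in early G1, and E cyclins pair with CDK2 towards S phase. Both kinds of complex phosphorylate RB1, which then releases E2F factors such as E2F1 to transcribe genes for DNA replication as well as CCNE1 and E2F1 itself. CDKN1A (p21) and CDKN1B (p27) bind cyclin-kinase complexes and can hold the cycle in G1. In myeloma a D cyclin gene is commonly overexpressed, and in lines that carry the translocation t(14;16), as MM.1S does, the transcription factor MAF drives CCND2. CDK4 and CDK6 are folded with the help of the chaperone HSP90 and its co-chaperone CDC37, a chaperone system that takes over many of its clients from HSP70.

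RNA was measured in TPM, a relative unit. A gene's reads are divided by transcript length, and each library is scaled to a constant total. Levels of different genes can therefore be compared only as far as the transcript assumed for each gene is right, which was not tested. Library totals lay between 994463 and 994718 TPM, and TPM values do not keep the read depth. All 8 plasma cell markers examined were between 22.04 and 1566 TPM in every library, and of the 13 markers of B cells, T cells, monocytes, stroma and epithelium with a row, 8 stayed under 1 TPM in every library. LYZ, a monocyte marker, was between 36.96 and 46.2 TPM, and the T cell marker CD3E between 3.21 and 7.7 TPM; KRT18, CDH1 and PDGFRB reached at most 2.9, 2.53 and 1.17 TPM. Summed over their lists, T cell markers gave 5.56 and 7.97 TPM in DMSO and 5.35 and 3.35 TPM in JG342, and monocyte markers gave 37.4 and 46.04, then 46.2 and 39.4 TPM; their part in the results was not tested. Differences between JG342 and DMSO were fitted with limma on log2(TPM + 1) for the 12042 genes that averaged 1 TPM or more, and a fold change is JG342 minus DMSO on that scale. A gene passed when its p, adjusted by the Benjamini-Hochberg method over all fitted genes, was under 0.05; 18.4% of the fitted genes passed, 10.8% as higher and 7.62% as lower.

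All 10 genes were fitted, and 5 passed, against 18.4% of all fitted genes. CCND3, CCNE1, CCNE2 and E2F1 were lower after JG342 (7.62% of all fitted genes were), and CDKN1A was higher (10.8% were). The other 5, CCND2, CDK4, CDK6, CDKN1B and RB1, did not pass. The median log2 fold change of the 10 genes was −0.15, against 0.03 over all fitted genes. For 8 of the 10 genes the values of the treatments did not overlap, 2 of them higher after JG342 and 6 lower; 62.1% of all fitted genes did not overlap either, so non-overlap alone does not set these genes apart. Without the filter on low values CCND3 alone of the 10 passed, and CDK2, CDC25A, MYBL2, ATF4, MAF, CCNH, CDKN1C and CDKN2D did not; without the variance trend CCND3 and CCNE2 passed. RNA of whole cultures was measured, so fewer cells in a phase of the cycle and less RNA per cell cannot be told apart.

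**Figure D1:**
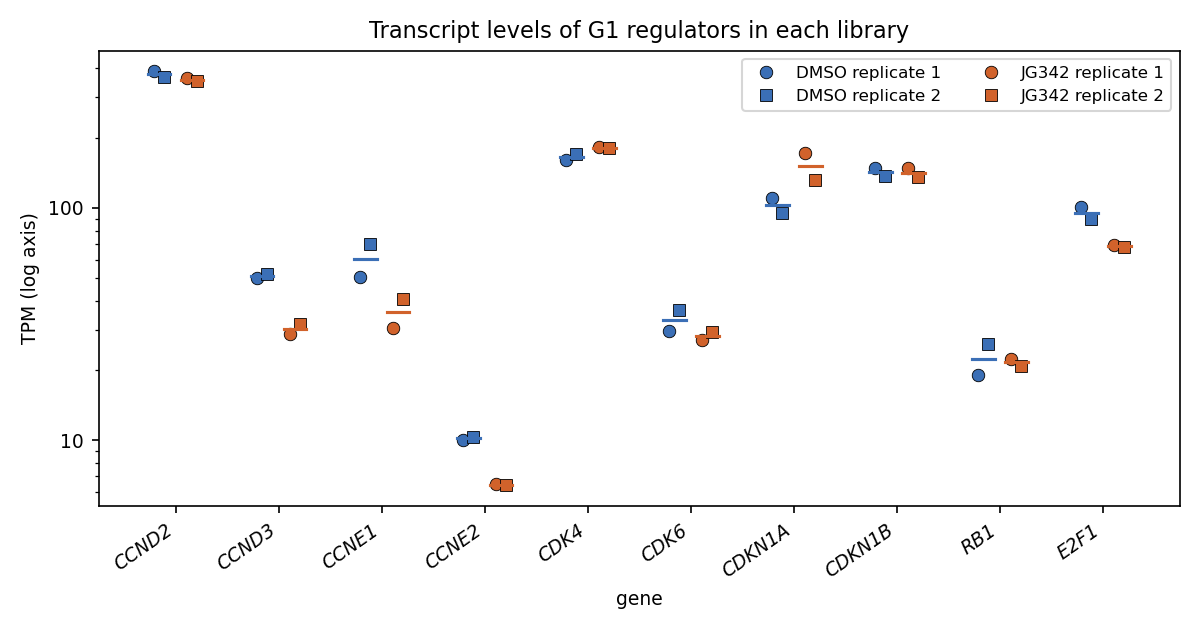
TPM on a log axis for each of the 10 genes; circles are replicate 1, squares replicate 2, blue DMSO, orange JG342, and bars the mean of 2 libraries. CCND3, CCNE1, CCNE2 and E2F1 sit lower in both JG342 libraries, CDKN1A sits higher, and CDKN1B and RB1 overlap.

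In DMSO the highest of the 10 transcripts was CCND2, with a mean of 377 ± 14.2 TPM (SD, n = 2), followed by CDK4 at 166 ± 7.96 and CDKN1B at 143 ± 7.47 TPM. CDKN1A (103 ± 11.1 TPM) and E2F1 (95.5 ± 8.21 TPM) came next and overlapped each other. CCNE1 (60.2 ± 13.5 TPM) and CCND3 (51.0 ± 1.22 TPM) also overlapped. CDK6 (33.1 ± 4.87), RB1 (22.5 ± 4.79) and CCNE2 (10.2 ± 0.25 TPM) were the lowest, each apart from its neighbour. After JG342 the order was the same except that CDKN1A, at 152 ± 28.3 TPM, stood above CDKN1B, at 142 ± 8.73 TPM, with overlapping values, and that CCNE1, CCND3 and CDK6 overlapped in turn.

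Of the D cyclins, CCND3 fell and CCND2 did not pass. CCND2 (NM_001759), the more abundant D cyclin of this line, was at 387 and 366 TPM in DMSO replicates 1 and 2, and at 361 and 353 TPM in JG342 replicates 1 and 2. Both JG342 values lie just under the lower DMSO value. The log2 fold change was −0.08 ± 0.09 SE, with a 95% interval from −0.28 to 0.12 (limma adjusted p 0.582), so a fall of more than 0.28 lies outside the interval. CCND3 (NM_001136017), a second D cyclin, was at 50.1 and 51.9 TPM in DMSO and 28.8 and 31.7 TPM in JG342. The JG342 values are far under the DMSO values compared with the gaps within each treatment. CCND3 fell by 40.7% in mean TPM, a change of −0.74 ± 0.11 SE in log2 units (limma adjusted p 0.00341), and it passed under each of the 13 alternative settings tried. The ratio of CCND2 to CCND3 was 7.71 and 7.07 in DMSO and 12.5 and 11.1 in JG342; the difference between the changes of these genes was not tested. Their summed level, of which CCND2 made up between 87.6% and 92.6%, changed by −0.16 and −0.12 on the log2 scale in the replicate 1 and replicate 2 pairs. CCND1, the D cyclin commonly activated in other myelomas, was at 9.24 and 12.2 TPM in DMSO and 10.3 and 12.5 TPM in JG342 and did not pass (0.09 ± 0.17 SE, limma adjusted p 0.750).

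MAF, the factor that drives CCND2 in such myelomas, was at 323 and 320 TPM in DMSO and 270 and 203 TPM in JG342. It fell by 0.46 ± 0.13 SE in log2 units (limma adjusted p 0.0417), with JG342 replicate 2 as its lowest library. The call was lost when any library but JG342 replicate 1 was left out, and without JG342 replicate 2 the value was −0.25 (limma adjusted p 0.172). Of its other known myeloma targets, the integrin ITGB7, at 9828 and 8483 TPM in DMSO and 10037 and 7697 TPM in JG342, overlapped between treatments. The chemokine receptor CCR1 was at 308 and 245 TPM in DMSO and 223 and 183 TPM in JG342 and did not pass (−0.44 ± 0.13 SE, limma adjusted p 0.0517). Fitting the replicate number as a block gave a call (limma adjusted p 1.38e-06). That fit has 1 residual degree of freedom and an infinite prior. Its p-values, for every gene, take no account of the gene's own spread and cannot be set beside those of the main fit. With 1 library left out at a time the value of CCR1 ran from −0.61 to −0.28, the latter without DMSO replicate 1 (limma adjusted p 0.284). The kinase NUAK1 did not pass, at 16.9 and 14.5 TPM in DMSO and 16.4 and 10.7 TPM in JG342. MAF and these 3 targets together had a median log2 fold change of −0.33. Of the 4, 1 passed as lower, against 7.62% of all fitted genes. With the block 2 of 4 passed, and 0 of 4 passed without the filter on low values, under quantile normalization, without the variance trend, or without DMSO replicate 1, DMSO replicate 2 or JG342 replicate 2. The list's median was −0.55 without JG342 replicate 1 and −0.09 without JG342 replicate 2.

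Both E cyclins were lower after JG342. CCNE1 (NM_001238) was at 50.7 and 69.8 TPM in DMSO and 30.6 and 40.8 TPM in JG342. In each treatment replicate 2 was the higher library, and the 2 pairs changed alike, by −0.71 and −0.76. CCNE1 fell by 40.7% in mean TPM (log2 fold change −0.73 ± 0.18 SE, limma adjusted p 0.0221); without DMSO replicate 2 the value was −0.51 and without JG342 replicate 1 −0.53, neither passing (limma adjusted p 0.151 and 0.0775). CCNE2 (NM_057749), the less abundant E cyclin, was at 10.03 and 10.4 TPM in DMSO and 6.47 and 6.41 TPM in JG342. Here the libraries of a treatment nearly coincide and the treatments are well apart. CCNE2 fell by 36.9% (log2 fold change −0.59 ± 0.14 SE, limma adjusted p 0.0235), and the value was −0.61, −0.57 and −0.60 without DMSO replicate 1, DMSO replicate 2 and JG342 replicate 1 in turn, none of them passing (limma adjusted p 0.0996, 0.138 and 0.0539). The ratio of CCNE1 to CCNE2 overlapped between treatments, at 5.05 and 6.72 in DMSO and 4.73 and 6.37 in JG342. INTS8, a subunit of the Integrator complex, is transcribed from the opposite strand and shares 55.8% of the CCNE2 transcript in GENCODE release 29; the strand setting of the counting is not given in the sources used here. INTS8 was at 20.7 and 19.3 TPM in DMSO and 24.6 and 19.5 TPM in JG342 and did not pass (0.13 ± 0.14 SE, limma adjusted p 0.574).

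CDK2, the partner of the E cyclins, and CDC25A, the phosphatase that activates CDK2, moved in the same direction. CDK2 fell from 53.95 and 69.98 TPM in DMSO to 37.2 and 38.6 TPM in JG342 (−0.68 ± 0.14 SE, limma adjusted p 0.0103). CDC25A fell from 33.7 and 42.9 TPM to 19.7 and 23.6 TPM (−0.79 ± 0.15 SE, limma adjusted p 0.00900). Without DMSO replicate 2, where both were higher than in DMSO replicate 1, the values were −0.50 and −0.62 and neither passed (limma adjusted p 0.0820 and 0.0763). CCNH, CDK7 and MNAT1 form the kinase complex that activates CDKs. CCNH rose from 35.4 and 31.7 TPM to 42.9 and 46.6 TPM (0.41 ± 0.12 SE, limma adjusted p 0.0406), and lost the call when any 1 library was left out, with values from 0.33 to 0.48, and after median scaling (0.34, limma adjusted p 0.0888). CDK7, at 21.04 and 24.6 TPM in DMSO and 23.3 and 28.1 TPM in JG342, and MNAT1, at 24.1 and 22.6 and then 22.9 and 27.95 TPM, did not pass.

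The G1 kinases did not pass in either direction. CDK4 (NM_000075), the more abundant of these kinase transcripts, was at 160.2 and 171 TPM in DMSO and 182 TPM in both JG342 libraries. The lower JG342 value exceeds the higher DMSO value by less than the DMSO libraries differ from each other. The log2 fold change was 0.13 ± 0.09 SE, with a 95% interval from −0.07 to 0.34 (limma adjusted p 0.345). TSPAN31, a tetraspanin gene on the opposite strand, shares 51.9% of the CDK4 transcript, and it rose from 40.1 and 41.1 TPM to 69.2 and 66.1 TPM (0.72 ± 0.10 SE, limma adjusted p 0.00268). Its part in the CDK4 values was not tested. CDK6 (NM_001145306), the related kinase, was at 29.7 and 36.6 TPM in DMSO and 26.97 and 29.4 TPM in JG342. DMSO replicate 2 stands above the other 3 libraries, and without it the value was −0.07. The log2 fold change was −0.22 ± 0.13 SE, with a 95% interval from −0.52 to 0.08 (limma adjusted p 0.286); it passed only with the replicate block and median scaling together (−0.29, limma adjusted p 0.0396). CDK4 made up 84.4% and 82.4% of the summed CDK4 and CDK6 level in DMSO, and 87.1% and 86.1% in JG342.

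HSP90AA1 and HSP90AB1, the HSP90 genes that act on these kinases, fell by 0.78 ± 0.09 and 0.49 ± 0.09 SE in log2 units (limma adjusted p 0.00123 and 0.00776). HSP90AB1, at 1954 and 1926 TPM in DMSO and 1360.1 and 1409 TPM in JG342, lost the call without DMSO replicate 1 or 2 at nearly the same value (−0.48 and −0.50, limma adjusted p 0.0677 and 0.0719). CDC37 was at 236 and 255 TPM in DMSO and 231 and 235 TPM in JG342, and did not pass (−0.07 ± 0.09 SE, limma adjusted p 0.622).

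**Figure D2:**
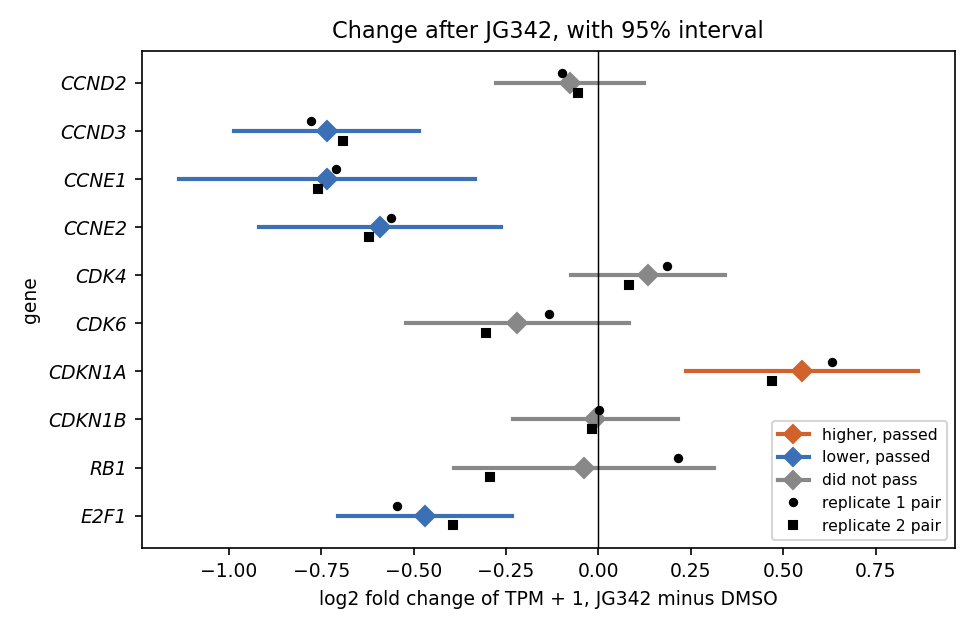
Log2 fold change of TPM + 1 for each gene, JG342 minus DMSO; diamonds are the limma estimate with its 95% interval, small circles and squares the replicate 1 and replicate 2 pairs. The intervals of the 5 genes that passed exclude 0, and RB1 has pairs of opposite sign (0.21 and −0.29).

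Of the inhibitors, CDKN1A rose and CDKN1B did not pass. CDKN1A (NM_000389), which is transcribed under stress signals, was at 111 and 95.2 TPM in DMSO and 172 and 132 TPM in JG342. The treatments do not overlap, and in both of them replicate 1 was the higher library. CDKN1A rose by 47.8% in mean TPM, a change of 0.55 ± 0.14 SE in log2 units (limma adjusted p 0.0257) and pair values of 0.63 and 0.47. Scaling the libraries to equal medians gave 0.48 and a limma adjusted p of 0.0558. The value was 0.44 without DMSO replicate 2 and 0.36 without JG342 replicate 1, neither passing (limma adjusted p 0.165 and 0.109). CDKN1B (NM_004064), which is controlled largely through protein stability, was at 148 and 137 TPM in DMSO and 148 and 136 TPM in JG342. The libraries of the treatments are nearly identical, and the log2 fold change was −0.01 ± 0.10 SE with a 95% interval from −0.23 to 0.21 (limma adjusted p 0.962). CDKN1A made up 42.8% and 40.9% of the summed CDKN1A and CDKN1B level in DMSO, and 53.8% and 49.4% in JG342.

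Of 5 further inhibitor genes, CDKN1C and CDKN2D had a row and both passed as higher, against 10.8% of all fitted genes. CDKN2A, CDKN2B and CDKN2C were not analysed here. CDKN1C (p57) rose from 2.84 and 4.29 TPM to 5.69 and 7.19 TPM (0.72 ± 0.21 SE, limma adjusted p 0.0434). CDKN2D (p19), an inhibitor specific to CDK4 and CDK6, rose from 14.7 and 16.7 TPM to 20.9 and 22.6 TPM (0.44 ± 0.13 SE, limma adjusted p 0.0461). Neither passed after median scaling (0.66 and 0.38, limma adjusted p 0.0715 and 0.0731). With 1 library left out at a time, CDKN2D ran from 0.36 to 0.53 and never passed, and CDKN1C ran from 0.48 to 0.95 and passed only without JG342 replicate 1.

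**Figure D3:**
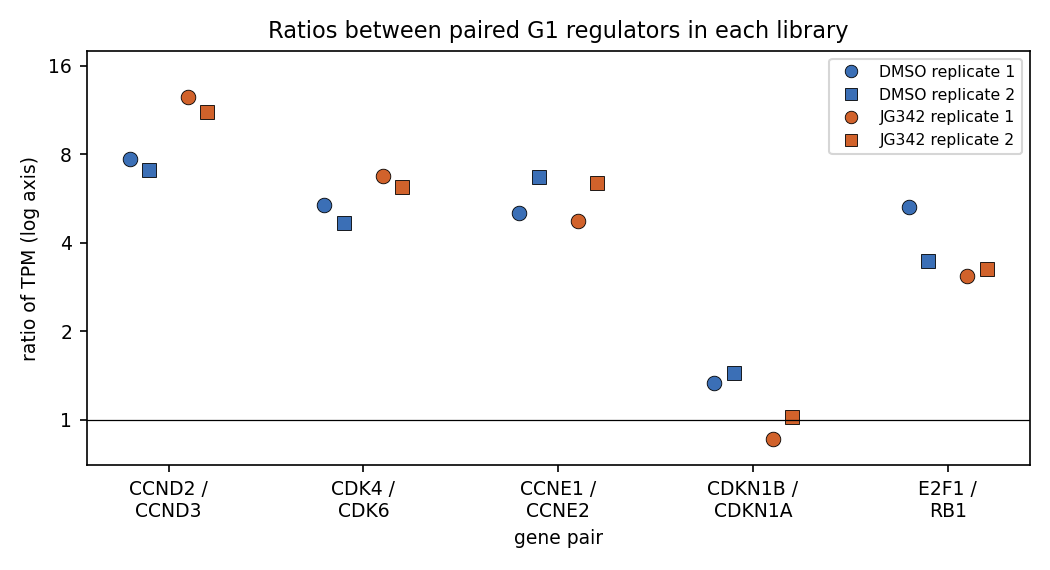
Ratio of TPM within each library on a log axis for 5 pairs of genes; circles are replicate 1, squares replicate 2, blue DMSO, orange JG342. CCND2 over CCND3 was 7.07 and 7.71 in DMSO and 11.1 and 12.5 in JG342, CDKN1B over CDKN1A was 1.33 and 1.44 against 0.859 and 1.03, and CCNE1 over CCNE2 overlapped.

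RB1 did not pass and E2F1 fell. RB1 (NM_000321), the pocket protein that restrains E2F factors, was at 19.1 and 25.9 TPM in DMSO and 22.35 and 20.95 TPM in JG342. The JG342 values lie between the DMSO values, and the log2 fold change was −0.04 ± 0.16 SE with a 95% interval from −0.39 to 0.31 (limma adjusted p 0.884). E2F1 (NM_005225), the activating E2F factor, was at 101 and 89.7 TPM in DMSO and 69.1 and 68.1 TPM in JG342. The JG342 libraries nearly coincide and lie under both DMSO libraries. E2F1 fell by 28.2% in mean TPM (log2 fold change −0.47 ± 0.10 SE, limma adjusted p 0.0161), and without DMSO replicate 1 the value was −0.38 (limma adjusted p 0.117). The ratio of E2F1 to RB1 was 5.30 and 3.46 in DMSO and 3.09 and 3.25 in JG342, so DMSO replicate 1 stood apart from the other 3 libraries.

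Of 17 further pocket protein, E2F and MuvB genes, 5 passed as lower and 1 as higher, against 7.62% and 10.8% of all fitted genes. The median log2 fold change of the 17 genes was −0.10. The activator E2F2 fell from 78.1 and 83.7 TPM to 42.04 and 38.6 TPM (−0.99 ± 0.11 SE, limma adjusted p 0.000754). E2F8, a repressor of the family that is itself made in S phase, fell from 32.8 and 35.7 TPM to 17.4 and 18.2 TPM (−0.90 ± 0.12 SE, limma adjusted p 0.00202). TFDP1, the dimer partner of E2F factors, fell from 195 and 216 TPM to 135 and 144 TPM (−0.55 ± 0.10 SE, limma adjusted p 0.00717). MYBL2, which joins the MuvB core to drive later cell cycle genes, fell from 268 and 328 TPM to 169 and 200.04 TPM (−0.69 ± 0.13 SE, limma adjusted p 0.00780). LIN9, a subunit of that core, was the fifth lower gene (−0.59), and LIN37, another subunit, was the higher one (0.40, limma adjusted p 0.0496; 0.0690 after median scaling). The activator E2F3 (−0.23), the repressors E2F4 (−0.11) and E2F7 (−0.05) and the pocket proteins RBL1 (−0.21) and RBL2 (0.06) did not pass. Without DMSO replicate 2 the calls in this list were 2, E2F2 and E2F8, both lower; the values of TFDP1 and MYBL2 were then −0.48 and −0.54 (limma adjusted p 0.0690 and 0.0652).

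Among 21 E2F target genes of the G1/S transition, 18 passed as lower and none as higher, against 7.62% and 10.8% of all fitted genes. All 21 had lower values in both JG342 libraries than in either DMSO library. Of all fitted genes, 62.1% did not overlap in one direction or the other. The 21 target genes belong to the replication and division genes already known to be lower in these libraries, so their direction is no independent evidence. Their median log2 fold change was −0.56, with values from −1.01 to −0.25. RRM2, the small subunit of ribonucleotide reductase, had the largest fall of the list, from 878 and 987 TPM to 458 and 466 TPM. RRM1, the large subunit, fell from 157 and 168 TPM to 94.2 and 99.5 TPM (−0.74 ± 0.10 SE, limma adjusted p 0.00191). FEN1, the flap nuclease, and UHRF1, which guides maintenance methylation, fell by 0.78 ± 0.09 and 0.85 ± 0.12 SE in log2 units (limma adjusted p 0.00116 and 0.00240). CDT1, MCM3 and MCM6 did not pass (−0.35, −0.28 and −0.25). The replicate block called all 21 as lower, but its p-values take no account of each gene's own spread. Without DMSO replicate 2, 7 of the 21 passed, and without the filter on low values 9, all lower.

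The 250 bases before the start sites listed by RefSeq (GRCh38.p14) were searched for the E2F motif, spelled TTTCCCGC, TTTCGCGC, TTTGCCGC or TTTGGCGC, on both strands. Of the 8 G1 regulators with such a window (all but CCND2 and CCNE2), E2F1 held the motif. The only window of RB1 lies 172724 bases inside the measured transcript, so the start of that transcript was not searched. For each of the other 7 a window's start site was within 280 bases of the measured transcript's start in GENCODE release 29. CCND3 also has listed start sites 107160 and 109763 bases inside its measured transcript. Which of these starts the CCND3 value covers is not given in the sources used here. Among all 35114 windows 2.79% held the E2F motif, and among the 9616 fitted genes with a window 5.71%. It was found for 8 of the 18 E2F target genes with a window, and for 5 of 15 further pocket protein, E2F and MuvB genes. The stretches below show, for the E2F factors and their partners, where the motif lies in genes that fell (E2F1, E2F2, TFDP1) and in genes that did not pass (RBL1, E2F3, LIN52). Each is 30 bases, 5′ to 3′ on the gene's strand, with the motif or its reverse complement in capitals.
E2F1 (chr20:33686394-33686423, minus strand): ctttcGCGGCAAAaaggaTTTGGCGCgtaa
E2F2 (chr1:23531257-23531286, minus strand): gcggcacgacgTTTGGCGCtaaaaaaaaaa
TFDP1 (chr13:113584622-113584651, plus strand): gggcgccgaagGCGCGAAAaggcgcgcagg
RBL1 (chr20:37096000-37096029, minus strand): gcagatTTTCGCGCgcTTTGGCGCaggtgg
E2F3 (chr6:20401815-20401844, plus strand): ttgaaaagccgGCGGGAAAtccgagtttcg
LIN52 (chr14:74084920-74084949, plus strand): tggaacctcgtTTTCCCGCcgacggttggc

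In E2F1 the motif occurs at 33 bases before the start site on the opposite strand and at 20 bases before it on the gene's strand. RBL1, with 2 matches as well, was at 26.7 and 24.9 TPM in DMSO and 22.6 and 21.6 TPM in JG342 and did not pass (limma adjusted p 0.242), so the motif was present in genes that fell and in genes that did not pass. The windows of CCND3, CCNE1 and CDKN1A held none of the E2F motif's spellings. Other spellings were not searched, so whether E2F factors bind there was not tested. No window of the 8 genes held TTTGAA, the cell cycle homology element, or TGATGNAA, the element bound by C/EBP and ATF factors, which occur in 13.3% and 3.14% of all windows; these letters being absent says nothing of what binds there.

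Genes that regulate transcription of the G1 regulators passed in both directions. MYC, which raises cyclin and E2F transcription, fell from 285 and 291 TPM to 181 and 182 TPM (−0.66 ± 0.09 SE, limma adjusted p 0.00206). MDM2, a ubiquitin ligase gene, was at 112 and 120.1 TPM in DMSO and 120.2 and 123 TPM in JG342 and did not pass. The stress factors DDIT3 and ATF4 rose by 3.25 ± 0.25 and 1.25 ± 0.24 SE (limma adjusted p 0.000141 and 0.00900); ATF4 was lowest in DMSO replicate 1, without which its value was 0.80. FOXO1, a factor that can activate CDKN1B, rose from 4.71 and 6.18 TPM to 8.4 and 9.73 TPM (0.65 ± 0.17 SE, limma adjusted p 0.0334; 0.59 and 0.0537 after median scaling). FOXO3 (−0.22) and MAX (0.10) did not pass. FOXO3 did with the replicate block, whose p-values take no account of the gene's own spread.

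Of 11 ubiquitin ligase components that act on G1 regulators, 1 passed as higher and 1 as lower, a share near the 18.4% of all fitted genes, so the count says nothing particular of the list; its median log2 fold change was −0.16. The calls were 5 (1 higher, 4 lower) with the replicate block and median scaling together, and 1 without DMSO replicate 2. FBXW7, the substrate receptor that marks cyclin E for degradation, rose from 21.3 and 20.4 TPM to 41.99 and 34.7 TPM (0.84 ± 0.13 SE, limma adjusted p 0.00383), and passed under each of the 13 alternative settings. DTL, the receptor that marks CDKN1A and CDT1 in S phase, fell from 79.2 and 85.2 TPM to 52.9 and 55.5 TPM (−0.59 ± 0.10 SE, limma adjusted p 0.00610; −0.54 and 0.0580 without DMSO replicate 2). SKP2, which marks CDKN1B, was at 42.1 and 50.1 TPM in DMSO and 52.6 and 50.02 TPM in JG342 and did not pass, nor did AMBRA1, the receptor for D cyclins (−0.18). CKS1B, the SKP2 cofactor, did not pass (−0.29, limma adjusted p 0.102). It did with the replicate block, whose p-values take no account of the gene's own spread.

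**Figure D4:**
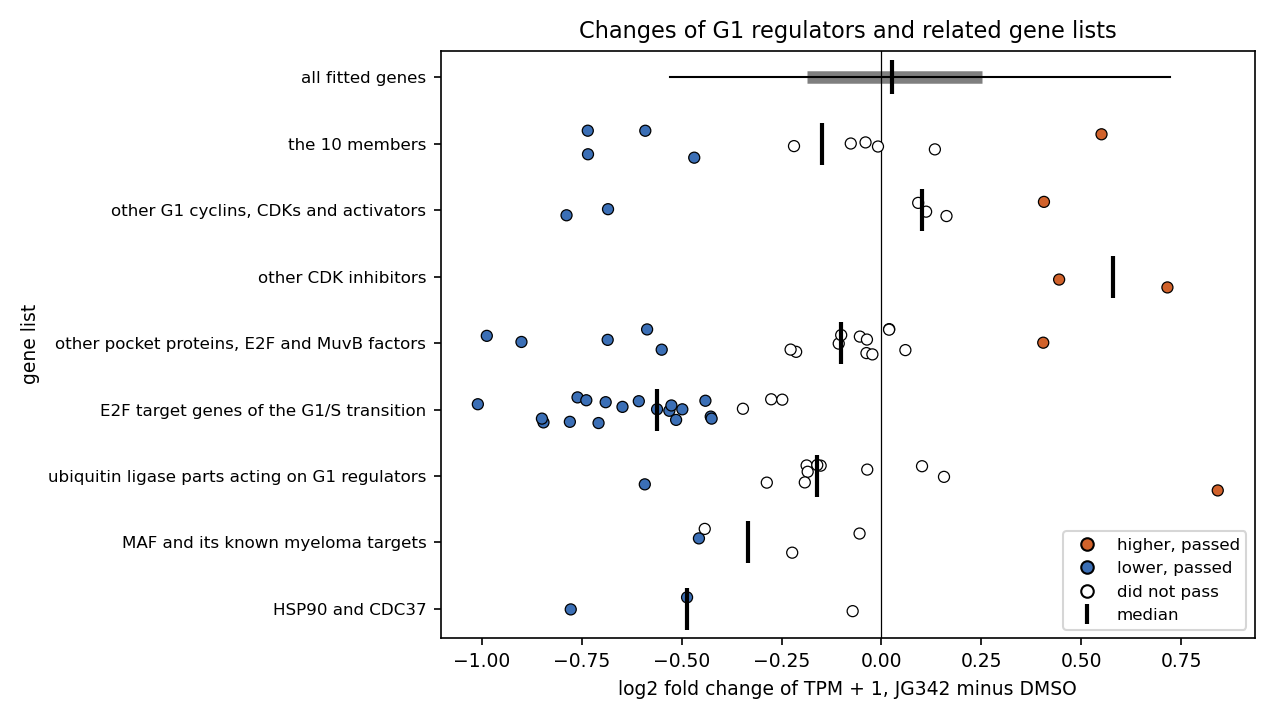
Log2 fold change of each fitted gene, JG342 minus DMSO, by list; orange and blue circles passed as higher or lower, white circles did not, and black ticks are medians (circles are spread vertically for legibility; the list of transcriptional regulators is not drawn). The top row shows all 12042 fitted genes as the 5th to 95th percentiles (line, −0.53 to 0.72) and the quartiles (bar, −0.19 to 0.25). Each E2F target gene lies below 0.

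The genes whose values over the 4 libraries lay nearest to those of CCND3, by Euclidean distance of centred log2(TPM + 1) among 9804 genes averaging 5 TPM or more, were LYAR (distance 0.032), RRM1 (0.054) and TYMS (0.069). LYAR, a nucleolar protein gene, was at 106 and 108 TPM in DMSO and 61.5 and 65.8 TPM in JG342. TYMS, thymidylate synthase, fell from 356 and 386 TPM to 217 and 242 TPM. Nearest to CDKN1A were ALDH3B1 (0.039), GM2A (0.062) and CASP1 (0.063). CASP1, an inflammatory caspase gene, was at 39.8 and 33.6 TPM in DMSO and 62.6 and 49.9 TPM in JG342, with replicate 1 the higher library in both treatments, as for CDKN1A. These distances rest on 4 libraries and are a description only.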

How the data were processed

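Total RNA of 4 MM.1S libraries was sequenced on a BGISEQ-500. The authors deposited 1 value per gene and library, taken to be TPM because each library sums to between 994463 and 994718 and values are not whole; no header states the unit. HISAT2 2.0.4, Bowtie2 2.2.5 and RSEM 1.2.12 are named, without roles, per the submitters' processing notes. The genome build, annotation and strand setting are not given in the sources used here. TPM keeps no read depth, so no counting intervals were made.

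The main test was limma 3.58.1 (R 4.3.3; lmFit, eBayes with trend) on log2(TPM + 1), for genes averaging 1 TPM or more, with treatment as the only term; p-values are two-sided. It uses 2 residual and 6.89 prior degrees of freedom. Same-numbered libraries share a prefix in their descriptions, and their deviations from the treatment means correlated across genes (Pearson r 0.27, Spearman rho 0.30), so a fit with the replicate number as a block was added. No set test was run. The script was tested on simulated data with 200 changed genes. The treatment-only fit called 89.5% of them at a true log2 change of 1 and 0% at 0.5. In the real data far more genes passed (2221 of 12042), which makes the adjusted threshold less strict there. Changes under 0.5 did pass, such as that of E2F1 (−0.47). The simulated shares therefore do not give the share of changed genes found in the real data. A gene that did not pass may still have changed. The members, gene lists and tests were chosen with earlier results of these data known. Named genes were the 10 members, up to 4 genes with the smallest p in each list, every gene of lists of 6 or fewer, and the 3 genes nearest in pattern to CCND3 and CDKN1A; others named (CDT1, MCM3, MCM6, LIN9, LIN37, LIN52, E2F3, E2F4, E2F7, RBL1, RBL2, MDM2, MAX, FOXO1, FOXO3, SKP2, AMBRA1, CKS1B, TSPAN31, INTS8) were chosen after their values were seen. All 10 member accessions matched GENCODE release 29 transcripts and the RefSeq gene table for GRCh38.p14 by symbol. BLAST 2.17.0 found no other gene at 95% identity over more than 15.3% of a member's transcript apart from INTS8 and TSPAN31. AC008012.1, annotated on the same strand as CCND2, shares 15.3% of the CCND2 transcript and has no row. Its part in the CCND2 values was not tested. Promoter sequences are from RefSeq (GRCh38.p14). Of the list of transcriptional regulators, 1 gene is not reported here, and no count or median of that list is given.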

Additional observations from a re-analysis of the deposited data

How the results depend on the processing

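With 2 libraries per treatment, 13 alternatives were run. The 10 member genes gave 5 calls; 1 remained without the filter on low values and 2 without the variance trend. Leaving out 1 library at a time gave between 2 and 5; the lone library of a treatment is then assumed to vary like the other treatment. The 5 genes that passed kept their sign in all 13 alternatives, and CCND3 passed in each. Over all fitted genes 2221 passed (1304 higher, 917 lower), 828 without the filter, 4207 (2316 higher, 1891 lower) with the replicate block and 3985 with the block and median scaling; leaving out 1 library gave 773 to 1905. The block fit has 1 residual degree of freedom and an infinite prior, so its p-values take no account of each gene's own spread. Its calls among the member genes were also 5. Under median scaling the middle log2 value over all fitted genes was −0.03 in place of 0.03, and the share of calls that were higher went from 58.7% to 44.6% (966 of 2166), while 4 members passed, all lower. Across the alternatives, 499 values of named genes kept their side of the threshold, 65 lost a call and 8 gained one, and the cause was not tested. No value changed sign where either fit gave a call. Some genes without a call did change sign between alternatives, among them RB1 (−0.25 to 0.17) and ITGB7 (−0.25 to 0.24). Without the filter 16057 genes enter the fit and the adjustment. The planned test for counts was not run because the values are not counts. TPM keeps no depth, so what depth limits cannot be stated.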
